A study of Mus musculus with 6 samples.

Results

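Sertoli cells are the somatic cells that line the seminiferous tubules of the testis and nurse the developing germ cells. They seal the tubule with tight junctions, secrete cystatins, clusterin, defensins and inhibin, pass lactate and iron to germ cells, and take up the cytoplasm that spermatids shed. In droplet single-cell sequencing each barcode marks 1 droplet, which can hold an intact cell, a fragment, more than 1 cell or free RNA. Here 861 droplet barcodes with Sertoli transcripts and few transcripts in all were described, of 68400 barcodes in 6 testis libraries.

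The barcodes were chosen by their counts of unique molecular identifiers (UMIs, each standing for 1 captured transcript). A barcode needed at least 500 and under 1000 UMIs, under 20% of them from mitochondrial genes, and under 10% from the sperm chromatin genes Prm1, Prm2, Tnp1 and Tnp2. Clu, Ctsl, Trf, Cst12, Cst9, Aard, Defb19, Rhox8, Gstm6, Wt1, Sox9 and Amhr2, called the marker genes below, together had to reach at least 5 UMIs and at least 1% of UMIs. Because these values chose the barcodes, they are described without a test. The same gate at 1000 or more UMIs held 1149 barcodes, and 10345 barcodes under 1000 UMIs fell outside the gate. These served as comparison sets.

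The libraries came from C57BL/6J males, an inbred strain without an engineered allele in the labels. Nicotine was given to 3 mice at 200 µg/mL in the drinking water, starting at 3 weeks of age and lasting 8 weeks, and 3 control mice had ordinary water. Intact testes were taken fresh, at 11 weeks of age, and each mouse gave 1 library made with 3' droplet chemistry. Oral exposure of the whole animal reaches every organ, so effects on Sertoli cells and on other cells cannot be told apart by the design.

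The libraries held 10823 to 12317 barcodes and 67853893 to 88329607 UMIs each, and no barcode had fewer than 500 UMIs. Of 67829 distinct barcode sequences, 564 (0.832%) occurred in more than 1 library. Among the low-UMI Sertoli barcodes, 17 had a sequence that was also present in another library, and 1 sequence was chosen in more than 1 library. Control replicate 1 was the deepest library and stood apart in the share of gated barcodes under 1000 UMIs, as given below.

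The control libraries contributed 122, 180 and 202 low-UMI Sertoli barcodes and the nicotine libraries 126, 103 and 128. Their median UMI number ran from 828.5 to 915 per mouse, and their median number of detected genes from 640 to 689.5. The marker genes supplied a median of 1.29% to 1.39% of UMIs per mouse, just above the minimum of 1%, against 1.56% to 1.72% in gated barcodes with 1000 or more UMIs. A median of 5 of the 12 marker genes was detected, so a typical barcode rested on 11 to 12 marker UMIs spread over several genes. The mitochondrial share had a median of 3.03% to 4.85%, and the 4 sperm chromatin genes one of 0.836% to 2.04%.

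No gap separated the chosen barcodes from their neighbours. Among barcodes under 1000 UMIs that met the limits of the rule outside the marker genes, 67.5% had no marker UMI. The rest declined steadily in number with the marker share. There were 445 at 0.6% to 0.8%, 358 at 0.8% to 1.0%, 268 at 1.0% to 1.2% and 219 at 1.2% to 1.4%. The 268 barcodes just inside the marker minimum carried 0.361% of UMIs in 40 further Sertoli genes that the rule did not use, and the 358 just outside carried 0.329%. At the upper UMI limit, 144 barcodes in the last 50 UMIs below 1000 had a median marker share of 1.35%, and 157 in the first 50 UMIs from 1000 on had 1.47%. The limit on the sperm chromatin genes removed no barcode that met the other conditions. The rule therefore drew lines through continuous distributions in these libraries.

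Counts were summed over the barcodes of a mouse, giving 87905 to 168637 UMIs per mouse, and levels are given as counts per 1000000 UMIs of that sum (CPM). Differences between genes in such 3' counts are not corrected for length, so each gene is compared only with itself across sets. The secreted marker genes made up most of the marker signal. Defb19, a beta-defensin, had 5173, 3733 and 5390 CPM in the control mice and 5450, 3618 and 6094 CPM in the nicotine mice. Both groups spanned nearly the same range. Cst9, a testis cystatin that inhibits cysteine proteases, had a mean of 3405 ± 461 CPM (SD, n = 6), against 245 CPM in the other low-UMI barcodes and 4587 ± 518 CPM in the gated barcodes with 1000 or more UMIs. Aard reached 1862 ± 296 CPM and Cst12, a further cystatin, 1524 ± 159 CPM. Ctsl, the lysosomal protease cathepsin L, had 1143 ± 255 CPM, and Clu, the secreted chaperone clusterin, 508 ± 104 CPM. The receptor gene Amhr2 had 395 ± 94.8 CPM. The transcription factors of the Sertoli lineage were sparse, at 51.6 ± 13.4 CPM for Wt1 and 26.2 ± 3.66 CPM for Sox9, which rested on 36 and 19 UMIs over all mice. Trf, the iron carrier transferrin, had 8 UMIs in all.

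Sertoli genes outside the rule gave a check of the label. A list of 40 such genes summed to 4124 ± 416 CPM (SD, n = 6) in the low-UMI Sertoli barcodes, to 788 ± 170 CPM in the other barcodes of the same UMI range and to 6244 ± 643 CPM in the gated barcodes with 1000 or more UMIs. The lowest of the 6 mice, at 3629 CPM, lay above the highest value of the other low-UMI barcodes, 1036 CPM. Defb36, a beta-defensin, had 666 CPM against 86.4 CPM in the other barcodes. Inha, the inhibin alpha subunit, had 208 against 26.0 CPM, Rhox5, an androgen-responsive homeobox gene, 178 against 20.1 CPM, and Ldhb, a lactate dehydrogenase subunit, 425 against 53.3 CPM. Tsx, an X-linked testis gene, had 376 against 49.7 CPM. Several defining genes were scarcely detected: Amh, a hormone of immature Sertoli cells, had 1 UMI, Fshr, the FSH receptor, had 3 and Gata4 had 6. Gdnf, a factor that maintains spermatogonial stem cells, and Krt18, a keratin of immature Sertoli cells, had 0 of 723796 UMIs, which allows a level of up to 4.15 CPM by counting error alone. Fshr was as sparse in the gated barcodes with 1000 or more UMIs, at 3.995 CPM. The barcodes thus carried Sertoli transcripts above the level of their neighbours, but at a small share of all their transcripts.

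**Figure D1:**
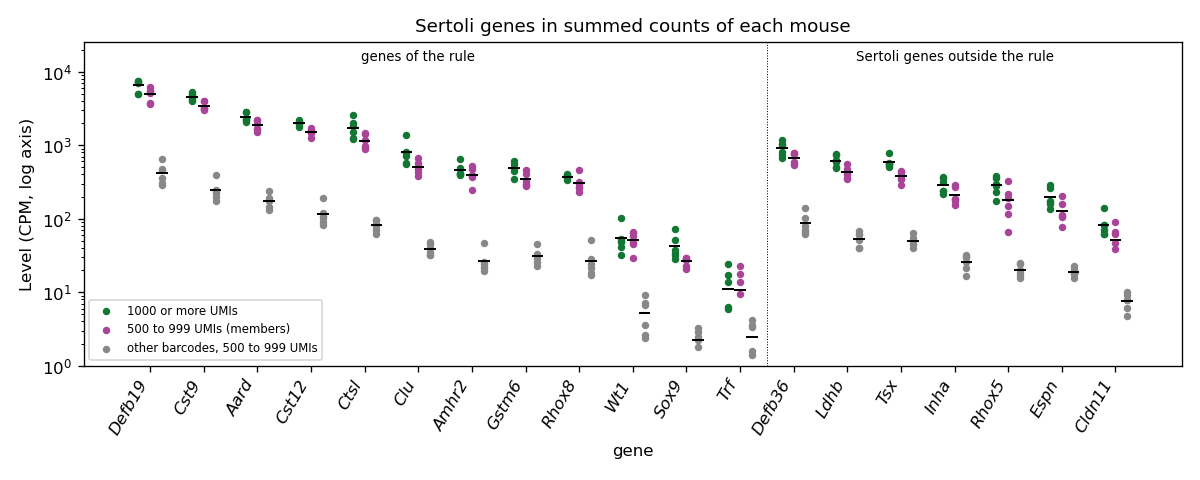
Level of Sertoli genes in CPM on a log axis, with 1 point per mouse and a bar at the mean of 6 mice; the 12 genes left of the dotted line chose the barcodes and mice at 0 CPM are not drawn. For Defb36 the low-UMI Sertoli barcodes averaged 666 CPM, the other low-UMI barcodes 86.4 CPM and the gated barcodes with 1000 or more UMIs 902 CPM.

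Abundant germ cell transcripts were found in the same barcodes, near their level in the other low-UMI barcodes. Ldhc, the germ cell lactate dehydrogenase, had 6905 ± 271 CPM (SD, n = 6) against 7550 ± 290 CPM in the other low-UMI barcodes. Meig1, needed for the sperm manchette, had 6313 ± 637 against 6442 ± 483 CPM, Fabp9, a fatty acid binding protein of the sperm head, 3540 ± 281 against 3805 ± 116 CPM, and Cox8c, a testis cytochrome oxidase subunit, 4125 ± 675 against 4545 ± 542 CPM. All 4 genes were chosen for display after their levels were seen. Of 1928 genes outside the rule with at least 100 CPM, 1187 (61.6%) lay within 1.25 times of their level in the other low-UMI barcodes, and these genes held 45.7% of the UMIs. They were not sorted by cell type, so this is not the share of germ cell transcripts. Another 178 genes (9.23%) were at least 2 times as high and held 4.72% of the UMIs. Only 26 were at most 0.5 times as high, among them Smcp, a mitochondrial sheath protein of sperm, at 887 against 2818 CPM, Oaz3, a spermatid antizyme, at 411 against 1056 CPM, and the nuclear RNA Malat1 at 213 against 519 CPM. Whether germ cell transcripts came from free RNA, from adhering germ cell material or from doublets was not tested.

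Markers of other somatic cells were lower than in the other low-UMI barcodes for some cell types and higher for others. A list of 14 stromal genes summed to 23.9 ± 16.5 CPM (SD, n = 6), against 270 ± 73.2 CPM in the other low-UMI barcodes. A list of 16 macrophage genes summed to 72.2 ± 21.6 CPM, from 54 UMIs over all mice, against 187 ± 64.7 CPM, and 12 endothelial genes to 21.6 ± 18.1 CPM against 29.8 ± 5.17 CPM. A list of 10 genes of peritubular myoid cells, the contractile cells around the tubule, summed to 188 ± 28.2 CPM, from 139 UMIs, against 120 ± 23.2 CPM, and lay above the other low-UMI barcodes in 6 of 6 mice. The Leydig list was also higher than in the other barcodes, at 943 ± 162 against 503 ± 95.6 CPM. Gstm2 and Ptgds, which the Leydig list holds, had 370 ± 52.8 CPM and 261 ± 82.3 CPM, and Ptgds is also in the Sertoli list. The cytosolic ribosomal protein genes made up 62375 ± 3084 CPM, close to 62312 ± 3593 CPM in the gated barcodes with 1000 or more UMIs.

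Within the gate, the composition differed between ranges of UMIs per barcode. The share of all barcodes that passed the gate was 6.72 ± 1.04% (SD over 6 mice) at 700 to under 800 UMIs, rose to 9.74 ± 3.34% at 900 to under 1000 UMIs and 10.0 ± 4.06% at 1000 to under 1100 UMIs, and was 2.80 ± 0.911% at 1500 to under 2000 UMIs. The 40 further Sertoli genes took 0.353 ± 0.0669% of UMIs at 700 to under 800 UMIs, 0.447 ± 0.0630% at 900 to under 1000 UMIs and 0.694 ± 0.0440% at 1500 to under 2000 UMIs. The mitochondrial share, which the rule used, went from 3.90 ± 0.991% to 5.12 ± 1.49% and 8.39 ± 1.73% over the same ranges. Spermatocyte genes went the other way, from 0.551 ± 0.0410% to 0.490 ± 0.0449% and 0.397 ± 0.0434%. Just above the limit, at 1000 to under 1100 UMIs, the further Sertoli genes took 0.504 ± 0.0735%, within the spread of the range below it. The 32 barcodes at 500 to under 600 UMIs and the 61 at 600 to under 700 UMIs did not continue this order. Their mitochondrial share was 5.17 ± 1.36% at 500 to under 600 UMIs and 3.25 ± 1.11% at 600 to under 700 UMIs, their spermatocyte genes took 0.461 ± 0.197% and 0.522 ± 0.121%, and the further Sertoli genes 0.358 ± 0.218% and 0.304 ± 0.0913%.

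**Figure D2:**
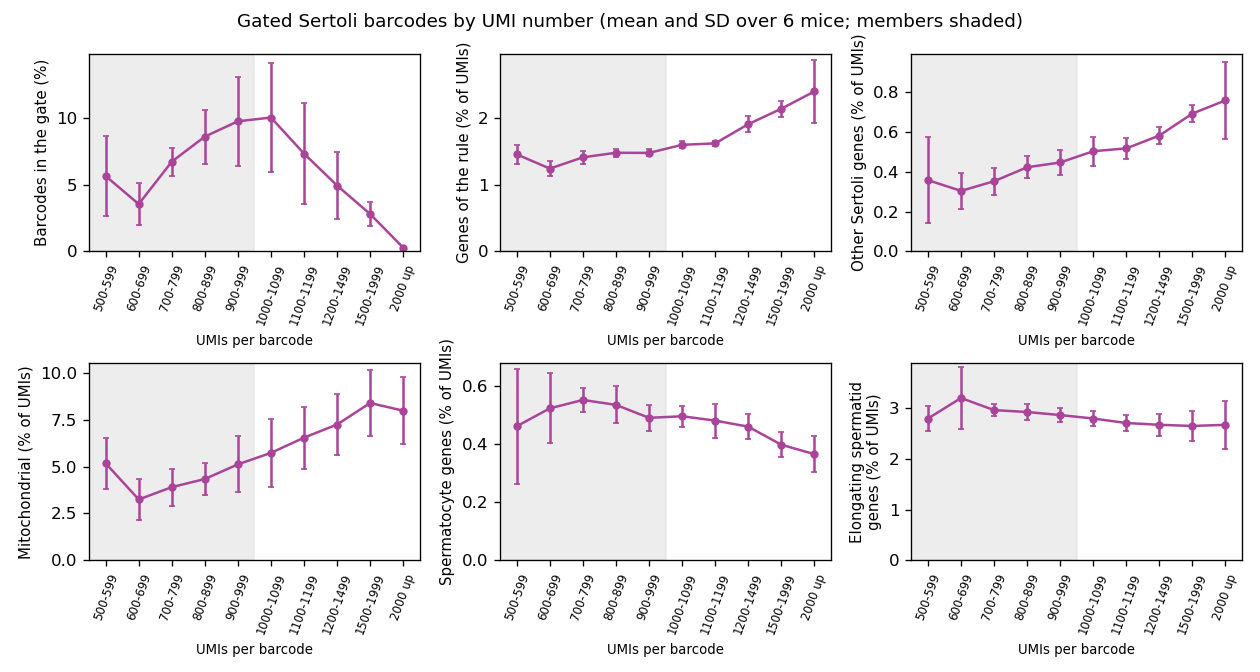
Gated barcodes in ranges of UMIs per barcode (the last range is open), with the mean and SD over 6 mice as points and bars; the ranges under 1000 UMIs are shaded. The 40 further Sertoli genes took 0.353% of UMIs at 700 to under 800 UMIs and 0.694% at 1500 to under 2000 UMIs. The spermatocyte genes took 0.551% and 0.397%. The 500 to under 600 range holds 32 barcodes, the fewest of all ranges.

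The low-UMI Sertoli barcodes were then compared with the gated barcodes of 1000 or more UMIs from the same mice, which asks how the transcript mix of a Sertoli barcode differs when few transcripts were captured. All 15 tested genes of the further Sertoli list were lower in the low-UMI barcodes, as were 12 of 18 tested genes of the antioxidant list. The marker genes, which the rule used, went the same way: the 9 with enough counts were all lower, with a median log2 difference of -0.49. Germ cell genes were called in both directions: 4 of 16 tested spermatocyte genes were higher and none lower, and of 22 tested genes of elongating spermatids 8 were lower and 2 higher. edgeR's quasi-likelihood test on summed counts, with the mouse as a block, called 638 of 3045 genes (21.0%) at a Benjamini-Hochberg adjusted p below 0.05. Of all genes tested, 246 (8.08%) were called higher in the low-UMI barcodes and 392 (12.9%) lower. Outside the genes of the rule, 246 were higher and 369 lower. DESeq2 called fewer, 58 higher and 112 lower outside the rule, and without the block edgeR called 118 and 218. The median log2 difference over all genes outside the rule was 0.02.

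The 15 tested genes of the further Sertoli list had a median log2 difference of -0.69, where 12.2% of all genes outside the rule were called lower. Only these 15 of the 40 had enough counts for the test. The marker genes took 1.45% of summed UMIs in the low-UMI barcodes and 1.95% at 1000 or more UMIs (means of 6 mice). The rule chose both sets by the marker genes. Falls of genes that go with them therefore cannot be told apart from that choice. Defb36 had 783, 535 and 598.9 CPM in the control and 773, 557 and 749 CPM in the nicotine mice in the low-UMI barcodes, against 990, 667 and 1039 and 818, 741 and 1158 CPM in the barcodes with more UMIs. It was lower in 6 of 6 mice, by -0.54 ± 0.08 on the log2 scale (SE; edgeR adjusted p = 2.01e-09). Tsx fell by 0.70 ± 0.10 (edgeR adjusted p = 6.47e-10), Ldhb fell by 0.62 ± 0.10 (edgeR adjusted p = 1.71e-08) and Vim, the intermediate filament vimentin, fell by 0.83 ± 0.17 (edgeR adjusted p = 2.48e-05). Each was lower in 6 of 6 mice. Cst3, the secreted cystatin C, had 318 ± 102 CPM against 518 ± 130 CPM (SD, n = 6). Inha had 208 ± 54.3 against 289 ± 65.8 CPM and was lower in 6 of 6 mice, with an edgeR adjusted p of 0.000424 but 0.0507 in DESeq2. Summed over the 40 genes, the level was lower in 6 of 6 mice, with a log2 ratio of -0.60 (two-sided exact paired permutation test, p = 0.03125, the smallest that 6 pairs allow; 0.0739 after adjustment over 26 lists).

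The 8 largest called falls, by the rule for named genes, ran from -1.51 for Gsta2 to -1.16 for Rbbp7 on the log2 scale. Gsta2, a glutathione transferase, had 37.7 ± 20.7 CPM in the low-UMI barcodes and 107 ± 35.3 CPM in those with 1000 or more UMIs (SD, n = 6; log2 difference -1.51 ± 0.27 SE, edgeR adjusted p = 9.74e-07). Aldh1a1, which makes retinoic acid from retinal, had 84, 48 and 77 CPM in the control and 77, 114 and 18 CPM in the nicotine mice, against 136, 262 and 187 and 146, 199 and 87 CPM. It was lower in 6 of 6 mice (log2 difference -1.43 ± 0.20 SE, edgeR adjusted p = 2.98e-10). Mdh2, a mitochondrial malate dehydrogenase, fell by 1.32 ± 0.27, Gm14226 by 1.31 ± 0.27, Klhl23 by 1.25 ± 0.29, and Ctnna3, an adhesion protein, by 1.24 ± 0.22. Ftl1, the ferritin light chain that stores iron, fell by 1.18 ± 0.15 and Rbbp7, a histone-binding protein, by 1.16 ± 0.27. Of these, Ctnna3 was the one whose level in the other low-UMI barcodes, 308 CPM, exceeded both gated sets, at 56.6 and 132 CPM. Gsta2, Mdh2, Gm14226 and Klhl23 rested on 28, 29, 31 and 27 UMIs in the low-UMI barcodes over all mice. At 1000 or more UMIs they had 164, 154, 159 and 136. Genes this sparse can enter the test through the set where they are high. The DESeq2 adjusted p was not available for Gsta2, Mdh2, Gm14226, Klhl23 or Rbbp7.

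Enzymes against oxidative damage were mostly lower. Of 18 tested genes of a list of 36, 12 (66.7%) were called lower and none higher, with a median log2 difference of -0.60, where 12.2% of all genes outside the rule were called lower and 8.15% higher. Prdx2, a peroxiredoxin, had 368 ± 78.6 CPM against 612 ± 165 CPM (SD, n = 6; log2 difference -0.79 ± 0.10 SE, edgeR adjusted p = 1.30e-12). Gstm1 fell by 0.98 ± 0.13, Gsta4 by 0.95 ± 0.14 and Gstm2 by 0.67 ± 0.10, and near-identical Gstm copies can share reads. Gpx4, which is abundant in spermatids, had 1302 ± 117 against 1236 ± 84.6 CPM and did not pass (edgeR adjusted p = 0.994). Among 12 tested genes of glucose and lactate metabolism, 4 (33.3%) were lower and 1 (8.33%) higher, against the same 12.2% and 8.15% of all genes. Pgam1 fell by 0.81 ± 0.15 and Pkm by 0.80 ± 0.17, both glycolytic enzymes, and Glul, glutamine synthetase, by 0.79 ± 0.22. Gnas, the G protein subunit through which the FSH receptor signals, fell by 0.62 ± 0.11, and Gas6, a ligand that bridges dying cells to phagocytes, by 0.82 ± 0.20. Psap, a saposin precursor of the lysosome, fell by 0.82 ± 0.21, and Ppt1, a lysosomal thioesterase, by 0.62 ± 0.16. In the nuclear-encoded respiratory chain, 8 of 51 tested genes (15.7%) were lower and 2 (3.92%) higher, shares near those of all genes outside the rule (12.2% and 8.15%). Within it, Ndufa4 had 382 ± 47.9 against 631 ± 34.4 CPM, with no overlap of the sets. The 13 mitochondrially encoded genes, which the rule used, were all lower, with a median log2 difference of -0.83. Of 9 tested heat shock genes, 5 (55.6%) were called lower and 2 (22.2%) higher. Hspb1 fell by 0.77 ± 0.12 and Hspe1 by 0.79 ± 0.16, both chaperones, while Hsp90aa1, a chaperone abundant in germ cells, was higher by 0.29 ± 0.06. DESeq2 did not call Psap (adjusted p = 0.142), Ppt1 (0.0808), Gas6 (0.0594) or Glul (0.105).

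Tight junction and adhesion genes of the blood-testis barrier were mostly too sparse to test. Of 30 listed, 3 were tested, Espn, Cldn11 and Ctnna1, and all 3 were called lower, with a median log2 difference of -0.73. Cldn11 and Ctnna1 rested on 37 and 38 UMIs in the low-UMI barcodes over all mice. In the gated barcodes with more UMIs they had 131 and 128. Genes this sparse can enter the test through the set where they are high. The 3 calls are therefore not set against the 12.2% of all genes outside the rule that were called lower. Each call was lost without at least 1 library. The highest edgeR adjusted p was 0.0673 for Espn without nicotine replicate 1, 0.134 for Cldn11 without nicotine replicate 3 and 0.143 for Ctnna1 without control replicate 3.

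The genes called higher included 2 abundant transcripts of the elongating spermatid list, Ldhc and Meig1, and 8 sparser genes with the largest rises. Ldhc had 7243, 6601 and 6790 CPM in the control and 6629, 7144 and 7024 CPM in the nicotine mice, all above the highest value in the barcodes with 1000 or more UMIs, 6146 CPM. Its log2 difference was 0.32 ± 0.05 (SE; edgeR adjusted p = 3.43e-09). Meig1 was higher in 6 of 6 mice, by 0.31 ± 0.05 (edgeR adjusted p = 1.53e-08), and Nasp, a histone chaperone named after its values were seen, by 0.48 ± 0.06 (edgeR adjusted p = 6.66e-14). Smco2 had the largest called rise, from 65.6 ± 21.5 to 151 ± 26.6 CPM (SD, n = 6; log2 difference 1.02 ± 0.20 SE, edgeR adjusted p = 1.02e-05), and Drc1, a component of the sperm tail axoneme, rose by 0.80 ± 0.23 (edgeR adjusted p = 0.00395). The other 6 of the 8 largest rises, Atf7ip2, Hcfc2, Slc4a8, Ap3b1, Gm13817 and Rbm46os, each lost the call without at least 1 library. Their highest edgeR adjusted p was 0.0671 and 0.0697 for the first pair, without nicotine replicates 2 and 1, then 0.278 for Slc4a8 and 0.112 for Ap3b1 with control replicate 1 left out, 0.0524 for Gm13817 (control replicate 3 left out) and 0.149 for Rbm46os (nicotine replicate 1 left out). The DESeq2 adjusted p was not available for any of these 6.

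Spermatocyte genes leaned upward. Of 16 tested of a list of 25, 4 were called higher and none lower, with a median log2 difference of 0.13, where 8.15% of all genes outside the rule were called higher. They were Piwil1, of the piRNA pathway, Clgn, a chaperone of the endoplasmic reticulum, Tbpl1, a TBP-related factor, and Hspa2, with log2 differences of 0.47 ± 0.17, 0.32 ± 0.10, 0.23 ± 0.08 and 0.20 ± 0.07. None of the 4 passed in DESeq2, and each lost the edgeR call without at least 1 mouse, with adjusted p up to 0.218 for Piwil1 without nicotine replicate 2, 0.0704 for Clgn without nicotine replicate 1, 0.137 for Tbpl1 without nicotine replicate 2 and 0.231 for Hspa2 without control replicate 2. Summed over the list, the level was 5206 ± 436 CPM against 4379 ± 387 CPM and higher in 6 of 6 mice (two-sided exact paired permutation test, p = 0.03125; 0.0739 adjusted over 26 lists).

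Genes of the elongating spermatid list were called in both directions, more of them lower. Of 22 tested genes of elongating spermatids outside the rule, 8 (36.4%) were called lower and 2 (9.09%) higher, where 12.2% and 8.15% of all genes outside the rule were called. Their median log2 difference was -0.28. The summed level of all 26 listed genes, without the sperm chromatin genes, was higher in 6 of 6 mice. Its log2 ratio was 0.12 (two-sided exact paired permutation test, p = 0.03125, and 0.0739 adjusted over 26 lists). Ldhc and Meig1 were the 2 that rose, and they hold much of the sum. Smcp fell by 0.58 ± 0.07 (edgeR adjusted p = 9.95e-14) and Gsg1 by 0.47 ± 0.08 (edgeR adjusted p = 1.42e-06), and both were lower in 6 of 6 mice. Of the 4 sperm chromatin genes, described without a test, Prm2 had a log2 difference of -0.54, Prm1 of -0.17, Tnp2 of -0.02 and Tnp1 of 0.11.

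The calls were then set beside the level of each gene in the other barcodes under 1000 UMIs. Of the 246 genes called higher, 239 (97.2%) lay within 1.25 times of that level, with a median ratio of 0.951, where the gated barcodes with 1000 or more UMIs had 0.683. Of the 369 called lower, 225 (61.0%) were at least 2 times that level in the low-UMI Sertoli barcodes, with a median ratio of 2.55, against 3.94 in the barcodes with 1000 or more UMIs. For 310 of them the low-UMI Sertoli level lay above that of the other barcodes, and so between those of the other 2 sets. The level also lay between for 173 of the 246 called higher and for 1529 of the 2404 not called. Among the genes not called, 57.1% lay within 1.25 times and 5.2% were at least 2 times the level in the other barcodes. The part that transcripts shared with the other barcodes had in the calls was not tested. After thinning to 500 UMIs, the median number of genes per barcode was 417 ± 2.94 in the low-UMI Sertoli barcodes and 408 ± 4.84 in those with 1000 or more UMIs (SD, n = 6), higher in 6 of 6 mice (exact paired permutation test, p = 0.03125). In the other low-UMI barcodes it was 425 ± 2.42.

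**Figure D3:**
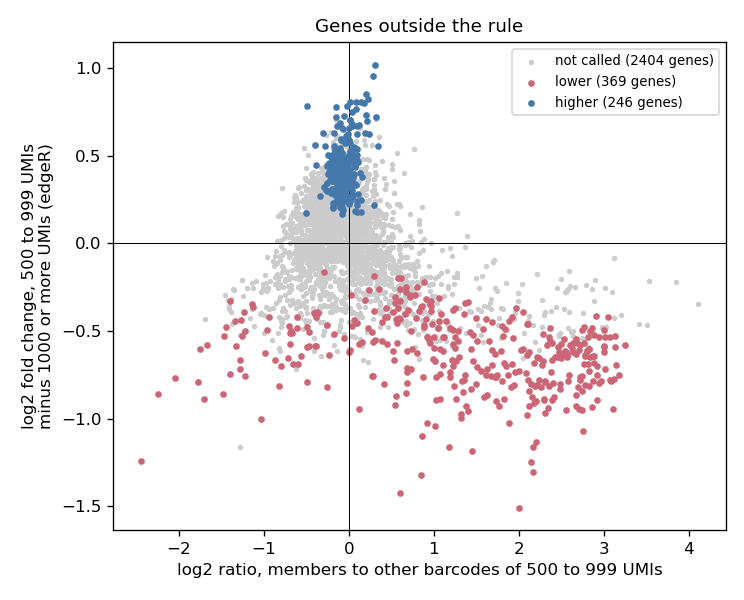
Each point is a gene outside the rule; the x axis is the log2 ratio of its level in low-UMI Sertoli barcodes to that in other barcodes under 1000 UMIs, and the y axis the edgeR log2 fold change against gated barcodes of 1000 or more UMIs. The 246 genes called higher stand near 0 on the x axis, and 225 of the 369 called lower stand at a ratio of 2 or more. Of the genes not called, 5.2% stand at such a ratio.

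The next question was whether nicotine changed how many such barcodes there were. They made up 1.02%, 1.66% and 1.64% of all barcodes in the control libraries and 1.16%, 0.950% and 1.11% in the nicotine libraries. The group means were 1.44 ± 0.365% and 1.07 ± 0.108% (SD, n = 3), and the groups overlapped because control replicate 1 was low (two-sided exact permutation test, p = 0.3; the smallest possible with 3 against 3 is 0.1). Without control replicate 1 the log2 ratio of nicotine to control went from -0.43 to -0.62 (exact p = 0.2). Of all gated Sertoli barcodes, 25.7%, 56.6% and 45.0% had under 1000 UMIs in the control and 52.7%, 42.6% and 44.4% in the nicotine libraries, which did not differ beyond the spread (42.4 ± 15.6% and 46.6 ± 5.40%, exact permutation p = 0.9). Adjusted over 5 comparisons of nicotine with control, these p-values were 0.5 and 0.9. A smaller number of barcodes and less RNA per cell cannot be told apart in such a count.

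The libraries differed in depth, and the control libraries were the deeper ones, at 75923816 to 88329607 UMIs against 67853893 to 73596886. When each library was thinned to the total UMIs of the smallest and the rule applied again, 10742 to 12196 barcodes per library remained, so the mean number of UMIs per barcode still differed. In these thinned libraries the low-UMI Sertoli barcodes made up 2.36 ± 0.290% of control barcodes and 1.21 ± 0.0611% of nicotine barcodes (SD over 3 mice each). The groups then no longer overlapped (log2 ratio -0.97, exact permutation p = 0.1, the smallest possible). The share of gated barcodes with under 1000 UMIs became 68.2 ± 2.46% in control and 52.3 ± 4.79% in nicotine mice, which turned its direction (log2 ratio -0.39, exact permutation p = 0.1). Both shares changed with the thinning, and the part of depth in the difference was not tested further.

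**Figure D4:**
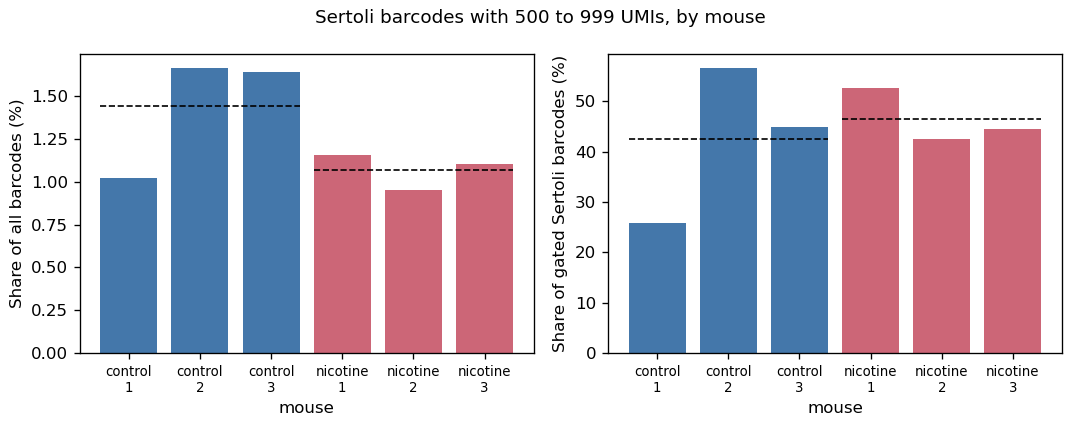
Low-UMI Sertoli barcodes in each mouse as a share of all barcodes (left) and of gated Sertoli barcodes (right); dashed lines are group means of 3 mice. Control replicate 1 is lowest of the control mice in both panels, at 1.02% and 25.7%.

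The last comparison asked which genes nicotine changed within these barcodes. edgeR's quasi-likelihood test called 0 of 2184 genes (0.0%) between nicotine and control, with a smallest adjusted p of 0.149. Of the 2159 genes outside the rule, 122 had an unadjusted p below 0.05, of which 48 were higher and 74 lower. DESeq2 also called 0, with 24 of all 2184 genes at an unadjusted p below 0.05. In counts simulated for this comparison, the test recovered 18.5% of genes changed 1.5-fold, 55.6% of those changed 2-fold and 84.6% of those changed 4-fold. Small changes could therefore have been missed. The simulation gave every gene the same variability between mice, so recovery in the real counts may differ. In the gated barcodes with 1000 or more UMIs, edgeR called 0 of 3904 genes, with 198 outside the rule at an unadjusted p below 0.05.

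No Sertoli gene was called between nicotine and control. Of 13 tested genes of the further Sertoli list, 10 were lower in nicotine mice and 3 higher, none called, with a median log2 difference of -0.19, where the median over all genes outside the rule was 0.00. The summed level was 4073, 4680 and 4210 CPM in the control and 3691, 4459 and 3629 CPM in the nicotine mice, and the groups overlapped (exact permutation p = 0.3). Cst3 had the lowest value of the list, with 364, 487 and 326 CPM in the control and 193, 296 and 244 CPM in the nicotine mice (log2 difference -0.71, edgeR adjusted p = 0.425). The groups did not overlap for this gene. Of the marker genes, given without a test, Amhr2 had 475, 515 and 397 CPM against 377, 364 and 244 CPM, also without overlap, with a log2 difference of -0.52. Defb19 had one of 0.07. Of 16 nicotinic acetylcholine receptor genes, 1 had enough counts to be tested, Chrne, which was not called. Paqr5, a membrane progesterone receptor, had 158, 158 and 190 CPM in the control and 77, 57 and 81 CPM in the nicotine mice, with no overlap (log2 difference -1.24, edgeR adjusted p = 0.336). Paqr5 was based on 94 UMIs over all mice. Cst3, Amhr2 and Paqr5 were named among many genes, and the share of all genes without overlap was not counted. In the gated barcodes with more UMIs, nicotine against control gave log2 differences of -0.28 for Cst3, 0.18 for Amhr2 and -0.15 for Paqr5.

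The sperm chromatin genes and the non-coding genes Gm42418 and AY036118 had lower means in nicotine mice, both in these barcodes and in the other low-UMI barcodes. The 4 sperm chromatin genes, which limit the choice of barcodes and so are described only, had log2 differences of -0.67 for Prm1, -0.67 for Tnp1, -0.66 for Tnp2 and -0.56 for Prm2. They took 2.11%, 1.43% and 1.83% of UMIs in the control mice and 1.07%, 0.931% and 1.48% in the nicotine mice. In the other low-UMI barcodes they took 2.39%, 1.64% and 2.15% and 1.45%, 1.30% and 1.71%. The log2 ratio of the group means was -0.63 in the low-UMI Sertoli barcodes and -0.47 in the others. Gm42418 and AY036118 are 2 non-coding genes that overlap on opposite strands of chromosome 17 (GRCm38, 39846958 to 39848788 and 39847113 to 39848035), so their reads may not be told apart. Gm42418 had 5546, 7130 and 6529 CPM in the control and 3517, 4710 and 4749 CPM in the nicotine mice, without overlap (edgeR log2 difference -0.59, adjusted p = 0.357). AY036118 had 830, 1105 and 1512 CPM against 696, 592 and 804 CPM, also without overlap (edgeR log2 difference -0.76, adjusted p = 0.149). In the other low-UMI barcodes the log2 ratio of group means was -0.42 for Gm42418 and -0.54 for AY036118. Their part in the difference within Sertoli barcodes was not tested.

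**Figure D5:**
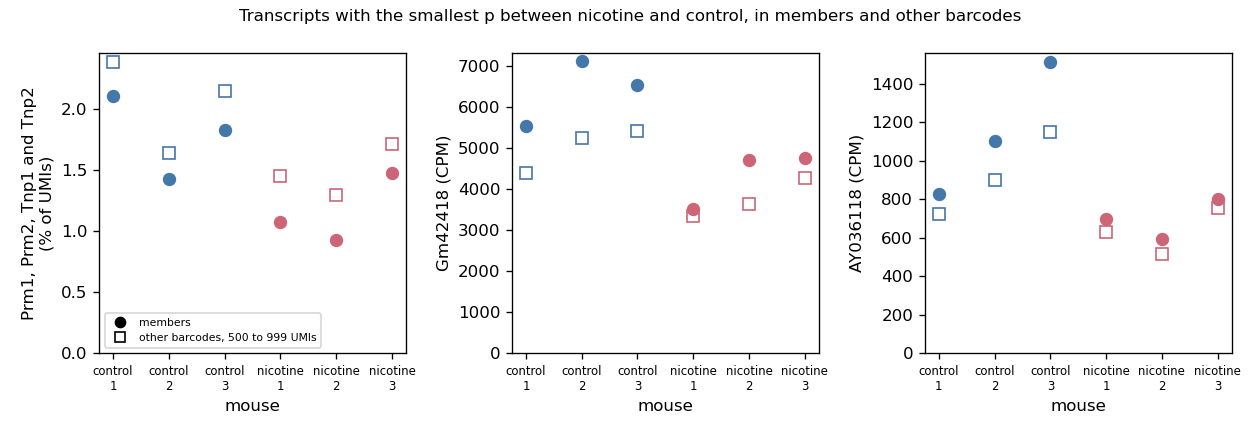
Share of UMIs from Prm1, Prm2, Tnp1 and Tnp2 (left, %) and levels of Gm42418 and AY036118 (CPM) in each mouse, for low-UMI Sertoli barcodes (filled circles) and other barcodes under 1000 UMIs (open squares). For the sperm chromatin genes the 6 mice come in the same order in both sets, and nicotine replicate 2 has the lowest sperm chromatin share in both sets, at 0.931% and 1.30%.

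No gene of the germ cell lists was called between nicotine and control. Of 21 tested genes of elongating spermatids outside the rule, 19 were lower in nicotine mice, with a median log2 difference of -0.26. Over all 2159 tested genes outside the rule, 1071 were lower and 1088 higher. Such counts of direction were not tested. The summed level of the whole list was 31600, 28492 and 29875 CPM in the control and 28004, 27825 and 29306 CPM in the nicotine mice, with overlap. Among its genes H1fnt, a spermatid linker histone, had 249 ± 38.1 CPM in the control group and 139 ± 23.6 CPM with nicotine (SD over 3 mice each; edgeR adjusted p = 0.425). In the other low-UMI barcodes it had 337 ± 22.9 and 243 ± 38.3 CPM. Of 13 tested spermatocyte genes, 11 were higher, with a median of 0.22, and the summed level was 5099, 4824 and 4613 CPM in the control against 5382, 5699 and 5616 CPM in the nicotine mice (exact permutation p = 0.1, the smallest possible; 0.65 adjusted over 26 lists). In the other low-UMI barcodes the spermatocyte sums were 6329, 6094 and 6048 CPM against 6649, 6747 and 6318 CPM, with overlap. The spermatogonium list, of which 3 of 19 genes could be tested, summed to 1091, 1112 and 961 CPM in the control against 1218, 1217 and 1219 CPM in the nicotine mice, without overlap. The macrophage list, which rested on 54 UMIs in all, summed to 93.2, 89.2 and 88.9 CPM against 48.3, 68.3 and 45.1 CPM, also without overlap. For each of these 2 lists the exact permutation p was 0.1, the smallest possible, and 0.65 after adjustment over 26 lists.

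Whether nicotine acted differently below and above 1000 UMIs was tested as an interaction. edgeR called 0 of 3739 genes (0.0%), with 166 outside the rule at an unadjusted p below 0.05 and a smallest adjusted p of 0.721, and DESeq2 called 0, with 9 at an unadjusted p below 0.05. Maged1 had the smallest p, with a log2 difference between nicotine and control of -0.93 below and 0.56 above 1000 UMIs. In counts simulated in the same way, interactions of 4-fold were recovered in 72.1% of cases, of 2-fold in 21.1% and of 1.5-fold in 4.92%. Differences in response of 2-fold or less could thus mostly have been missed.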

How the data were processed

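Single-cell RNA-seq of both testes of 3 control and 3 nicotine-exposed mice was used, 1 library per mouse. The deposited values are raw UMI counts per gene and barcode, which the authors made with Cell Ranger 7.2.0 against GRCm38, per the submitters' processing notes; the way barcodes were called is, in the sources used here, not given. Barcodes were selected by the rule in the report, with no further filter, and doublets were left in (an alternative removed the highest Scrublet scores of scanpy 1.11.5, at 0.8% per 1000 barcodes). Nothing in the labels names a sequencing batch. The mouse is the replicate.

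Counts were summed per mouse and set and tested with edgeR 4.0.16 in R 4.3.3 (quasi-likelihood, robust, filterByExpr, TMM), with genes called at 0.05 after Benjamini-Hochberg adjustment; DESeq2 1.42.0 was an alternative. Shares and list sums were compared by two-sided exact permutation tests over mice in Python 3.11.15 with scipy 1.17.1. The upper limit given for genes with 0 UMIs covers counting error only. SDs are taken over mice, and SEs come from the edgeR fit. Positions come from GENCODE vM21, which held 32158 of the 32285 features by ID; overlapping genes were not separated.

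The barcodes, gene lists and named genes were chosen with earlier results of these data known. Named genes were the genes of the rule, a fixed set of Sertoli genes, up to 8 called rises and 8 called falls of largest size with at least 10 CPM, up to 4 called members per list by smallest p, and, in a comparison without calls, the 5 genes with the lowest p. Fabp9, Cox8c, Nasp, H1fnt, Oaz3 and any others outside this rule were picked after their values were seen. The tests were run on simulated data with 200 genes changed by known folds: for the comparison by UMI number they recovered 33.8%, 83.8% and 88.5% of genes changed 1.5-fold, 2-fold and 4-fold among 3051 genes, with 4 of 142 calls outside the changed genes. For nicotine against control 6 of 106 calls fell outside them, among 2208 genes. The simulated counts had the same variability for every gene and no level particular to a mouse, so recovery in the real counts may differ.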

Additional observations from a re-analysis of the deposited data

How the results depend on the processing

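Between nicotine and control, 0 genes outside the rule were called in the report. Without a filter on low counts 2 were called (Gm42418 and AY036118), from 700 UMIs on 1 (AY036118), and leaving out each mouse gave 0 to 1, the 1 being AY036118 without control replicate 1 or 2; the other settings gave 0. With the replicate number as a block 2 were called, Gm42418 and AY036118. After the mean of its group was taken from each gene, the deviations of same-numbered mice correlated by 0.0211, 0.162 and 0.0725 over genes. Not every mouse correlated best with its own number, so the numbers are not taken as pairing the mice. The count of genes higher below than above 1000 UMIs was 246 in the report, 58 with DESeq2, 49 without a filter on low counts, 118 with no replicate block, 124 against barcodes of 1000 to under 2000 UMIs, and 156 to 221 when each mouse was left out, 156 without nicotine replicate 2. The count lower was 369, and 112 with DESeq2 and 218 with no replicate block. A marker minimum of 2%, which left 74 barcodes and 672 tested genes, gave 21 in each direction. Of 72 named genes called in this comparison, 53 kept the call in every fit with a mouse left out that tested them. The call was lost for 21 of 57 with DESeq2, 24 of 72 with no replicate block and 30 of the 39 still tested at a marker minimum of 2%, and none reversed where it was tested. The interaction gave 0 to 1 calls when a mouse was left out, 1 (Fabp3) without control replicate 3. The log2 ratio of the share of gated barcodes under 1000 UMIs was 0.13, and it reversed to -0.11 at a marker minimum of 2%, to -0.39 with libraries thinned to equal total UMIs (not to equal UMIs per barcode) and to -0.12 without control replicate 1, with 0.04 to 0.40 for the other mice left out. The cause of these changes was not tested. The summed levels of the Sertoli, elongating spermatid and spermatocyte lists and the genes per barcode kept their direction in every setting. Depth limits the sparse genes: Gata4, Fshr and Trf rest on 8 or fewer UMIs.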

Other observations

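The 4 genes with the highest ratio to the other barcodes under 1000 UMIs, among those with at least 100 CPM outside the rule, were picked by this ratio and are given without a test. Qpct, which cyclises N-terminal glutamine of peptides, had 145 ± 49.5 CPM (SD, n = 6) against 10.0 CPM in the other barcodes. Pcsk1n, an inhibitor of a prohormone convertase, had 112 ± 22.5 against 9.74 CPM, Creg1, a lysosomal glycoprotein, 262 ± 55.6 against 27.7 CPM, and Sdc4, a cell surface proteoglycan, 146 ± 57.5 against 16.1 CPM. Each was higher in 6 of 6 mice.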
